A study of Mus musculus with 16 samples.

Results

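Oil-treated db/db wounds were compared between the 2 days on which they were labelled as harvested, day 7 and day 14 after wounding. The comparison rests on 4 of the 16 arrays of the study, the 2 labelled day 14 and the 2 labelled day 7 of the db/db + vehicle group, chosen by their labels alone. The wounds were those of db/db females, 10 weeks of age and of the strain written as C57BLKS/J Iar-+Lepr db/+Lepr db, which carry the leptin receptor mutation on both chromosomes and become obese and diabetic. Full-thickness punch wounds were made on the back, kept under a moist dressing and covered daily with sesame oil, the vehicle that carried estradiol benzoate in the db/db + estrogen group. The db/db + estrogen group and an untreated db/db group were females of the same strain and age. Untreated wild-type C57BL/6J females (WT) were 10 to 12 weeks of age. Each of these groups had 2 arrays on each labelled day as well, and all 4 groups were wounded and dressed in the same way. RNA came from homogenates of the whole wound with the surrounding intact skin, so that a lower signal of a cell type's genes cannot be told apart between fewer such cells and less RNA per cell. The number of mice behind an array was not stated, and the replicates were given as biological.

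Labelled day and scan day coincided. All day 7 arrays were scanned on 1 day and all day 14 arrays on another, on separate slides, so that harvest day, hybridization and scan cannot be told apart in any difference below. The day names themselves were also in doubt. Of 17 published fold changes of the db/db + vehicle group over the db/db group, 0 were within 1% of the value computed from arrays of the same labelled day, and 17 were within 1% of the value from the arrays with the opposite label. The arrays are therefore named by their labels, and differences are given as signal on the arrays labelled day 14 minus signal on those labelled day 7, without a direction in time.

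The values are scaled signals, that is the log2 of the background-subtracted signal of a probe minus the log2 of the 75th percentile of its array, so that 0 is the 75th percentile and a difference of 1 is a 2-fold difference. The 75th percentile lay at 2072 and 1787 signal units on the day 7 arrays and at 2435 and 2423 on the day 14 arrays. The share of probes well above background was 77.4% and 74.8% on the day 7 arrays and 75.9% and 74.6% on the day 14 arrays. Across the 30022 probes tested, the 2 day 14 arrays correlated with r = 0.993, the 2 day 7 arrays with r = 0.985, and pairs across the labels with r = 0.963 to 0.971. The labelled tissue was borne out by its markers. Krt5, a keratin of basal keratinocytes, was at 7.06 and 7.53 on the day 7 arrays and at 7.44 and 7.48 on the day 14 arrays. Krt14, its partner, differed by 0.44 ± 0.40 (log2 ± SE) and Col1a1, a collagen of dermal fibroblasts, by 0.13 ± 0.29, and neither passed the test. Lepr, the mutated receptor gene, differed by -0.13 ± 0.41.

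Closure of a skin wound passes through inflammation, in which neutrophils and then macrophages enter the wound, proliferation, in which keratinocytes, fibroblasts and vessel cells divide and fill the gap, and remodelling, in which collagen is laid down and crosslinked. In db/db mice these steps are drawn out, with long inflammation and slow re-epithelialization. Dividing cells switch on a shared set of genes late in the cell cycle, the mitotic cyclins, their kinase and the motors and kinases of the spindle, and these are read here as markers of proliferation.

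Of the probes tested, 739 were significantly higher on the day 14 arrays (2.46%) and 2816 were significantly lower (9.38%) at an unadjusted two-sided p of limma's moderated test below 0.05 and a fold change above 2, the rule under which a probe is called here. After Benjamini-Hochberg adjustment, 407 (1.36%) and 2027 (6.75%) passed. Higher probes thus made up 20.8% of the calls. That share was 37.6% after quantile normalization, with 1196 higher and 1983 lower, and 16.1% after normexp background correction, with 298 and 1556. The median difference over all probes was -0.07, with an SD of 0.836, and it moved to 0.065 and -0.141 under these 2 settings. The 2 labels did not overlap for 18711 of the 30022 probes tested and for 3548 of the 3555 called, so that absence of overlap is a description of a called gene and adds nothing to its call. With 2 arrays against 2, an exact permutation test of a single gene cannot give a p below 0.333, so that calls rest on a spread moderated across probes and, in the fit used here, pooled over the 8 groups. With the 4 oil arrays alone in the fit, 772 probes were called higher and 2910 lower.

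The calls were concentrated in dim probes. In the dimmest quintile of the probes 6.44% were called higher and 19.8% lower, and in the brightest quintile 0.716% and 2.51%. Of the higher calls, 280 were on probes well above background on no day 7 array, and of the lower calls, 507 were on probes well above background on no day 14 array. In the gene lists below, each gene is read from its brightest tested probe. A list and the share of all probes set beside it are therefore not matched for brightness.

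**Figure D1:**
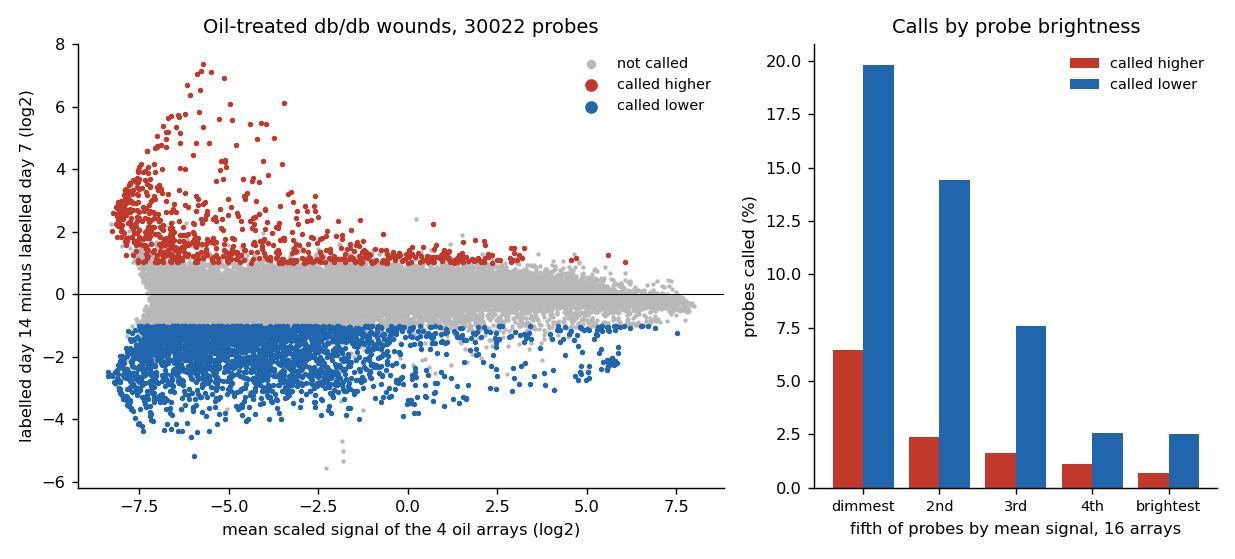
Difference between labelled day 14 and labelled day 7 (log2, vertical axis) against the mean scaled signal of the 4 arrays of oil-treated db/db wounds (log2, horizontal axis) for 30022 probes, called higher in red and called lower in blue, and the share of probes called in each brightness quintile. Called probes lay mostly among dim probes, where 19.8% of the dimmest quintile were lower and 6.44% higher.

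Genes of dividing cells were among those higher on the day 14 arrays. Of 34 cell cycle genes tested, 8 were called higher and 0 lower by limma, and 7 passed adjustment, beside 2.46% and 9.38% of all probes. Aurkb, counted in both the 8 and the 7, was well above background on the day 14 arrays only. It was kept for testing through these arrays alone, so that its call adds no support. The difference was above 0 for 32 of the 34, and their median was 0.80 against -0.07 over all probes. Summed on the linear scale, in units of the 75th percentile, the signal of the list was 54.7 and 61.4 on the day 7 arrays and 97.3 and 104 on the day 14 arrays. Markers of the epidermis gave sums of 552 and 736 on the day 7 arrays and 656 and 582 on the day 14 arrays, and 0 of their 12 genes were called in either direction by limma. The part of cell composition in the cell cycle result was not tested.

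Mitotic cyclins and their kinase were among the genes called. Ccnb2, a B-type cyclin that drives entry into mitosis, was at 1.36 and 1.36 on the day 7 arrays and at 2.61 and 2.47 on the day 14 arrays, a difference of 1.18 ± 0.32 (2.26-fold, adjusted p = 0.0384). Cdk1, the kinase that B-type cyclins activate, was at -1.19 and -1.04 against 0.02 and 0.06, a difference of 1.15 ± 0.33 (adjusted p = 0.0448). Neither gene overlapped between the labels, as was so for 3548 of the 3555 called probes. The other 2 probes of Cdk1 differed by -1.08 and 1.68, so that its probes disagreed in direction. Ccna2, the cyclin of S phase and G2, differed by 1.03 ± 0.25 (adjusted p = 0.0263).

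Genes of the spindle were called as well. Kif20a, a kinesin needed for cytokinesis, was at -0.58 and -0.48 on the day 7 arrays and at 0.74 and 0.77 on the day 14 arrays (2.43-fold, adjusted p = 0.0363). Cenpe, a kinetochore motor, was at 0.21 and 0.53 against 1.61 and 1.59 (2.35-fold, adjusted p = 0.0327). Plk1, a kinase of mitotic entry and spindle assembly, was at 0.77 and 0.72 against 1.85 and 1.86 (2.16-fold, adjusted p = 0.0427). In each of these, as for nearly all called probes, the lowest day 14 array stood above the highest day 7 array. Cdc20, an activator of the anaphase-promoting complex, differed by 1.04 ± 0.33 and passed the unadjusted rule only (adjusted p = 0.0639). Aurkb, the kinase of the chromosomal passenger complex, was well above background on no day 7 array and was at least 1.68-fold higher on the day 14 arrays. Genes of DNA replication were below the 2-fold threshold. Pcna, the sliding clamp, differed by 0.67 (adjusted p = 0.0203), and Mcm4 and Mcm6, subunits of the replicative helicase, by 0.98 (adjusted p = 0.00986) and 0.73 (adjusted p = 0.0337). Mki67 and Top2a, widely used proliferation markers, were under the 2-fold threshold too, at 0.62 (adjusted p = 0.178) and 0.95 (adjusted p = 0.0662). Over the other settings 7 to 12 genes of the list were called higher and 0 lower, and normexp correction ended the calls of Cdk1 (0.97), Cdc20 (0.93) and Aurkb (0.06). Leaving out day 7 replicate 1 ended the call of Ccna2 (0.95), leaving out day 14 replicate 1 that of Cdc20 (0.96), and quantile normalization those of Ccna2 (0.97) and Cdc20 (0.99).

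The promoters of 4 of these genes are shown because late cell cycle genes are known to carry a pair of short promoter elements, a CCAAT box and a cell cycle genes homology region (CHR). Each run holds 300 bases of the gene's strand around the annotated start of transcription (RefSeq, mouse build GRCm38.p6). Capitals mark CCAAT or its reverse ATTGG, and TTTGAA or its reverse TTCAAA, the letters of a common CHR element. Ccnb2 lies at chr9:70421505-70421804 (minus strand), Cdk1 at chr10:69352863-69353162 (minus strand), Plk1 at chr7:122159185-122159484 (plus strand) and Cdc20 at chr4:118437294-118437593 (minus strand).
Ccnb2: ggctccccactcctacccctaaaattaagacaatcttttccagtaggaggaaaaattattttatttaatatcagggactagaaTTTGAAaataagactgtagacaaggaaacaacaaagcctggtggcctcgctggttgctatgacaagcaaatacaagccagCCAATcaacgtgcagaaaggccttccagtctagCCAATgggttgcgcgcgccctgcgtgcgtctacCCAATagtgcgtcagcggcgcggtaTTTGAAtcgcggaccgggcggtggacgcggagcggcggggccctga
Cdk1: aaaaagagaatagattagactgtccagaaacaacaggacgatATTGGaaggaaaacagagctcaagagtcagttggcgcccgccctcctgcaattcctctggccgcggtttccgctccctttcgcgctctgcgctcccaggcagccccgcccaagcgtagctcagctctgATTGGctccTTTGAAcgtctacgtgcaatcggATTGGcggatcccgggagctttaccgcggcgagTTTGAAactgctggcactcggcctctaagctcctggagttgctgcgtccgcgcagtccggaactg
Plk1: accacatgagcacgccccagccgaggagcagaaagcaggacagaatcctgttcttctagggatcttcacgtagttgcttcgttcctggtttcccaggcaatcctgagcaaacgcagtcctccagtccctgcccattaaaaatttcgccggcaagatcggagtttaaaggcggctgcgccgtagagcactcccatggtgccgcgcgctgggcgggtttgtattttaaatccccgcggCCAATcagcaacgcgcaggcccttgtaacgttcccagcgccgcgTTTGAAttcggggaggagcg
Cdc20: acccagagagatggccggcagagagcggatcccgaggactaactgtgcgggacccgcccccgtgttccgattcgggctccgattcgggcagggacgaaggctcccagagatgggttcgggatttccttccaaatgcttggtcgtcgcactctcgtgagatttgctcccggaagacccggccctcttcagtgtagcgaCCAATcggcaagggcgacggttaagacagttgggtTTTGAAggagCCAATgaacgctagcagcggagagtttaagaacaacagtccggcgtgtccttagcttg
Ccnb2 and Cdk1 each held 2 CHR letter runs and 3 CCAAT runs, Plk1 1 of each, and Cdc20 1 and 2. Promoters were found for 5 of the 8 called genes, the other being Cenpe with 1 CCAAT run and no CHR letters. Of all 27025 promoters of the table, 18.1% held TTTGAA on either strand, 37.9% held CCAAT and 7.12% held both, and of the promoters of 29 cell cycle genes tested 14 held TTTGAA, 25 CCAAT and 14 both. A match is a description of the sequence and not of binding in these wounds.

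The other groups gave medians close to this. The median difference of the 34 genes was 0.71 in the db/db group, 0.65 in the db/db + estrogen group and 0.89 in the WT group, against 0.80 in the db/db + vehicle group, and limma called 0 of the 34 for a difference from any of these groups. Of all probes, 2.2% were called for a higher and 0.526% for a lower difference from the db/db group, 3.77% and 3.34% from the db/db + estrogen group and 2.58% and 7.01% from the WT group, shares at which few of 34 genes would be called. These groups share slides and scan days with the oil-treated wounds.

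**Figure D2:**
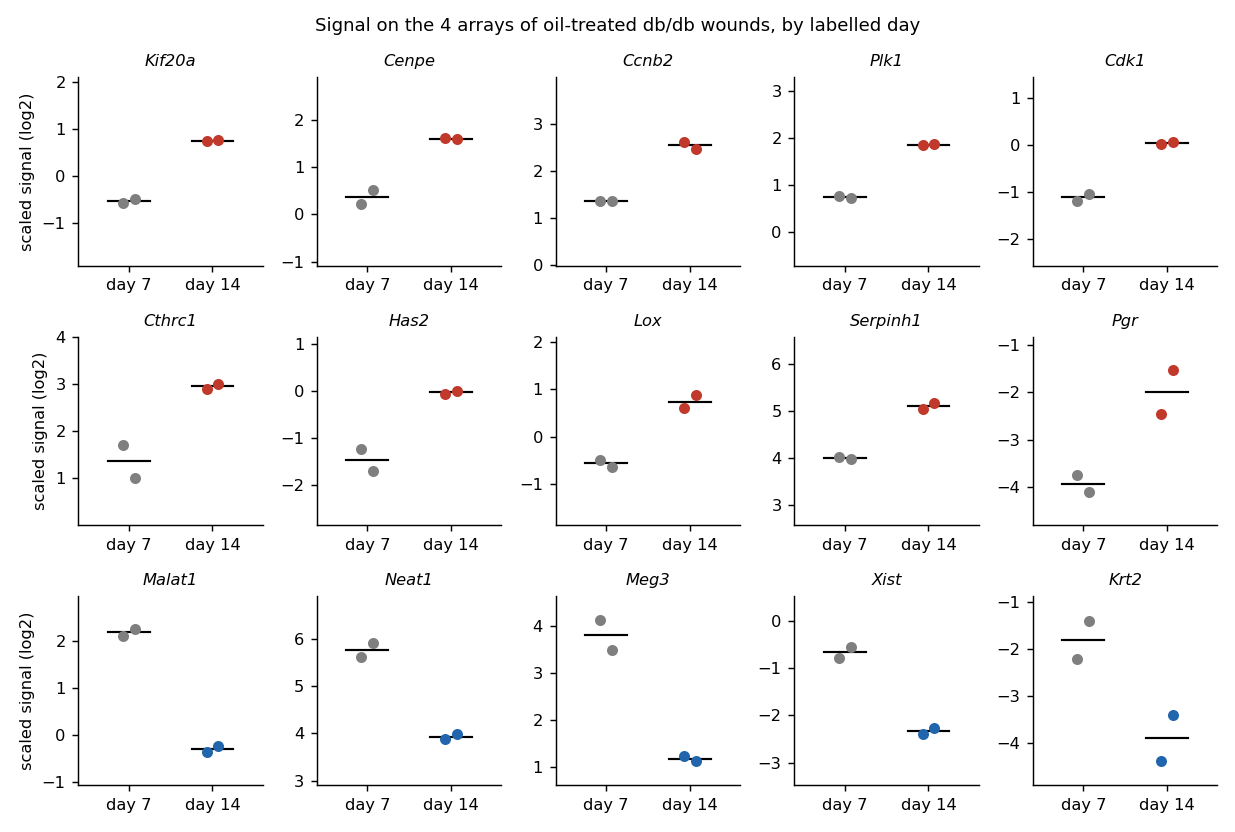
Scaled signal (log2) on each of the 4 arrays of oil-treated db/db wounds for 15 genes, with points for arrays, bars for the mean of 2 arrays, grey for labelled day 7, red for labelled day 14 where the gene was higher and blue where it was lower. All panels span the same number of log2 units, and the labels did not overlap in any panel, as they did not for 3548 of the 3555 called probes.

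A few genes of the matrix were higher on the day 14 arrays. Of 41 collagen and matrix genes, 4 were called higher (9.76%, against 2.46% of all probes) and 0 lower, 2 passed adjustment, and 35 differed by more than 0, with a median of 0.44. Serpinh1, the collagen chaperone of the endoplasmic reticulum, was at 4.03 and 3.99 on the day 7 arrays and at 5.03 and 5.16 on the day 14 arrays (2.12-fold, adjusted p = 0.0337). Lox, which crosslinks collagen and elastin, was called with both of its probes, by 1.30 ± 0.28 (adjusted p = 0.0148) and 1.08 ± 0.27 (adjusted p = 0.0303). Thbs1, a matricellular protein, and Bgn, a small proteoglycan, differed by 1.11 and 1.04, did not pass adjustment, and each lost its call without 3 of the 4 arrays in turn. The count of the list was 1 without day 7 replicate 2, 7 without day 7 replicate 1 and 2 without either day 14 array, and normexp correction ended the call of Serpinh1 (0.97). The second probe of Lox lost its call without day 7 replicate 2 (0.78) and without day 14 replicate 2 (1.00).

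Bright probes designed to curated messenger RNAs gave further genes. These were chosen after their values were seen. They were the 12 largest higher differences that passed adjustment among probes brighter than the median of those tested, called bright here. Cthrc1, a secreted protein of wound fibroblasts that limits collagen deposition, was at 1.71 and 1.01 on the day 7 arrays and at 2.91 and 2.998 on the day 14 arrays (3.01-fold, adjusted p = 0.016). Has2, the main hyaluronan synthase of fibroblasts, was at -1.23 and -1.69 against -0.05 and -0.006 (2.7-fold, adjusted p = 0.00682). Areg, a ligand of the EGF receptor, was at -2.23 and -2.26 against -0.53 and -0.82 (2.98-fold, adjusted p = 0.0474). None of the 3, picked for their size, overlapped between the labels. Ccdc80, a matrix protein of mesenchymal cells, was higher by 1.35, Bcat1, an enzyme of branched-chain amino acid breakdown, by 1.46, Rras2, a small GTPase, by 1.43, Shcbp1, a protein of dividing cells, by 1.30, and Bcas1, the largest of the set, by 1.90. The others were Wfdc13 (1.49), Smco4 (1.41), Steap1 (1.34) and the probe of Lox with the larger difference given above. Rras2 lost its call without day 7 replicate 2 (0.75). Another probe was tested for 3 of the 12 genes and was called for 1, Lox, while that of Ccdc80 differed by 0.52 and those of Bcat1 by 0.65 and 0.29. The differences of the 12 in the db/db group had the same sign for 12 and a median of 1.11, in the db/db + estrogen group the same sign for 10 and a median of 0.96, and in the WT group the same sign for 10 and a median of 0.62.

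Of 13 EGF and FGF ligands, Areg and Fgf7 were called higher (15.4%, against 2.46% of all probes) and 0 lower. Fgf7, the keratinocyte growth factor made by fibroblasts, was at -0.13 and -0.60 on the day 7 arrays and at 1.103 and 0.80 on the day 14 arrays, and did not pass adjustment (adjusted p = 0.0893). Of 22 blood vessel genes, Aplnr, the apelin receptor of sprouting endothelium, was called higher (1.06) and Vegfa, the main angiogenic growth factor, lower. Each is 4.55% of the list, against 2.46% of all probes called higher and 9.38% called lower. The list median was 0.49, and 18 of the 22 differed by more than 0. Vegfa was at 2.83 and 2.12 against 1.39 and 1.46, a difference of -1.05 ± 0.34 (adjusted p = 0.0706), and its second probe differed by -0.996. Without day 7 replicate 1 the difference of Vegfa was -0.69, without day 14 replicate 1 that of Aplnr was 0.99 and that of Fgf7 1.17, and without day 7 replicate 2 they were 0.92 and 1.08, and each of these calls was then lost. The count of blood vessel genes called higher rose without day 7 replicate 1, as did the count over all probes.

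Several long noncoding RNAs were lower on the day 14 arrays. Malat1, Neat1 and Meg3 are long RNAs kept in the nucleus, Snhg7 is a host of small nucleolar RNAs, and Xist coats the inactive X chromosome of female cells, and all but Xist were picked after their values were seen. Malat1 was at 2.10 and 2.24 on the day 7 arrays and at -0.37 and -0.25 on the day 14 arrays (5.58-fold lower, adjusted p = 0.00104). Neat1 was at 5.62 and 5.93 against 3.89 and 3.98 (3.58-fold lower, adjusted p = 0.00872). Xist was at -0.77 and -0.56 against -2.39 and -2.26 (3.16-fold lower, adjusted p = 0.00408), and its second probe differed by -1.45. In all 3 the replicates lay close together and the labels, as for nearly all called probes, did not overlap. Meg3 was lower by 2.62, 2.84 and 2.33 on the log2 scale with its 3 probes on these arrays, and Snhg7 by 2.22 (adjusted p = 0.00109). Untreated db/db wounds gave differences of -2.24 for Malat1, -1.97 for Neat1, -1.53 for Meg3, -2.31 for Snhg7 and -1.28 for Xist. Estrogen-treated wounds gave -0.94, -1.07, -1.41, -1.16 and -1.61 in the same order, and the difference from them did not pass adjustment for any of the 5, with the lowest adjusted p at 0.169 for Malat1. WT wounds gave -0.65, 0.13, -0.20, -0.38 and -0.31, and the difference from WT passed adjustment for Malat1 (-1.83, adjusted p = 0.0383) and Snhg7 (-1.84, adjusted p = 0.0278) and not for Neat1 (adjusted p = 0.0804), Meg3 (adjusted p = 0.0968) and Xist (adjusted p = 0.11).

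The kind of RNA a probe was designed to moved with these calls. Probes to curated messenger RNA accessions were called lower in 5.12% and higher in 2.01%. Probes to curated noncoding RNA accessions were called lower in 18.2% and higher in 21 of 785, those to Ensembl transcripts in 20.3% and 3.46%, those to predicted RefSeq models in 15.2% and 3.99%, and those to cDNA clones, clusters and other GenBank entries in 26.2% and 3.8%, so that both shares of each kind were above those of messenger RNA probes. Whether this reflects the RNA, the labelling reaction or the probes was not tested.

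Barrier genes of the epidermis were spread between the day 7 replicates. Of 41 genes of the granular layer and barrier, 34 differed by less than 0, with a median of -0.91, and 3 were called lower and 0 higher. The 3 are 7.32% of the list, against 9.38% of all probes and 5.12% of probes to curated messenger RNAs called lower. Krt2, a keratin of the late spinous and granular layer, was at -2.21 and -1.41 on the day 7 arrays and at -4.37 and -3.42 on the day 14 arrays (4.25-fold lower, adjusted p = 0.0263), and its second probe differed by -3.01 without a call. Lce1k, a late envelope protein, and Aloxe3, a lipoxygenase of the lipid barrier, were called lower, by 1.95 and 1.35 on the log2 scale, did not pass adjustment, and lost their calls without 3 and without 2 of the 4 arrays in turn. The summed signal of the list was 353 and 776 on the day 7 arrays and 265 and 290 on the day 14 arrays, so that day 7 replicate 2 stood apart from the other 3. Flg2, a filaggrin family member of the granular layer, was at 0.40 and 2.82 against 0.12 and 0.41 and was not called. The list had 7 genes called lower without day 7 replicate 1, 1 without day 7 replicate 2 or day 14 replicate 1, and 2 without day 14 replicate 2.

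Hair genes were spread in a like way. Of 54 hair keratin and hair shaft genes, 9 were called lower (16.7%, against 9.38% of all probes) and 1 higher, and the median was -0.41. Krt35, a keratin of the hair cortex and matrix, was at -4.74 and -1.78 on the day 7 arrays and at -7.89 and -6.91 on the day 14 arrays (adjusted p = 0.0388). Krt25, a keratin of the inner root sheath, was well above background on no day 14 array and was at least 16.5-fold lower there (adjusted p = 0.0679). Krt33b, a hair shaft keratin, was at least 2.06-fold lower, and Krtap16-3, a keratin-associated protein, was lower by 1.07 on the log2 scale (adjusted p = 0.0317). Krtap12-1, another keratin-associated protein, was at least 12-fold higher (adjusted p = 0.0115). Krt35, Krt25 and Krt33b were kept for testing through the day 7 arrays alone, and Krtap12-1 through the day 14 arrays alone. Their calls, which are in the counts of the list, therefore add no support. Krt35 and Krt25 did not overlap between the labels, and their day 7 replicates were far apart, with replicate 2 the higher. Without day 7 replicate 2 the list had 4 genes called lower, without day 7 replicate 1 it had 16, without day 14 replicate 1 it had 4, and Krt25 (-2.52) and Krt33b (-1.51) lost their calls without day 7 replicate 2. Krtap16-3 lost its call without day 14 replicate 1 (-0.89), with normexp correction (-0.99) and with quantile normalization (-0.73), and normexp correction also ended the calls of Krt25 (-2.30) and Krt33b (-0.61). Trpm1, a channel of melanocytes, was the only gene of 10 melanocyte genes called, by -3.52, or 10% of the list against 9.38% of all probes. Its second probe differed by -0.66.

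Muscle genes marked another array. Full-thickness wounds of mouse skin reach the panniculus carnosus, a sheet of striated muscle. Myh7 and Myl2, the slow myosin heavy chain and its regulatory light chain, were at 5.09 and 4.03 on day 7 replicate 1 and between -6.02 and -3.07 on the other 3 arrays. Their mean differences of -5.00 and -5.55 did not pass the test. The summed signal of 24 fast fibre genes was 1050 on that array and 334 to 446 on the others, and 0 of them and 0 of 12 slow fibre genes were called by limma with all 4 arrays. Erythrocyte genes gave sums of 131 and 51.7 on the day 7 arrays and 178 and 68.3 on the day 14 arrays, and 0 of 7 were called. Adipocyte genes gave 219 and 220 against 115 and 238. Lower calls made up 9.38% of all probes and 5.12% of probes to curated messenger RNAs. Of 19 adipocyte genes, Adrb3, the beta-3 adrenergic receptor, was called lower (-1.13), or 5.26%. Without day 14 replicate 2, 9 of the 19 were called lower, where 2822 of 30859 probes were. Adrb3 lost its call without 3 of the 4 arrays in turn, and 5 slow fibre genes were called lower without day 7 replicate 2, where 2692 of 31032 probes were. The part of these tissues in the other results was not tested.

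**Figure D3:**
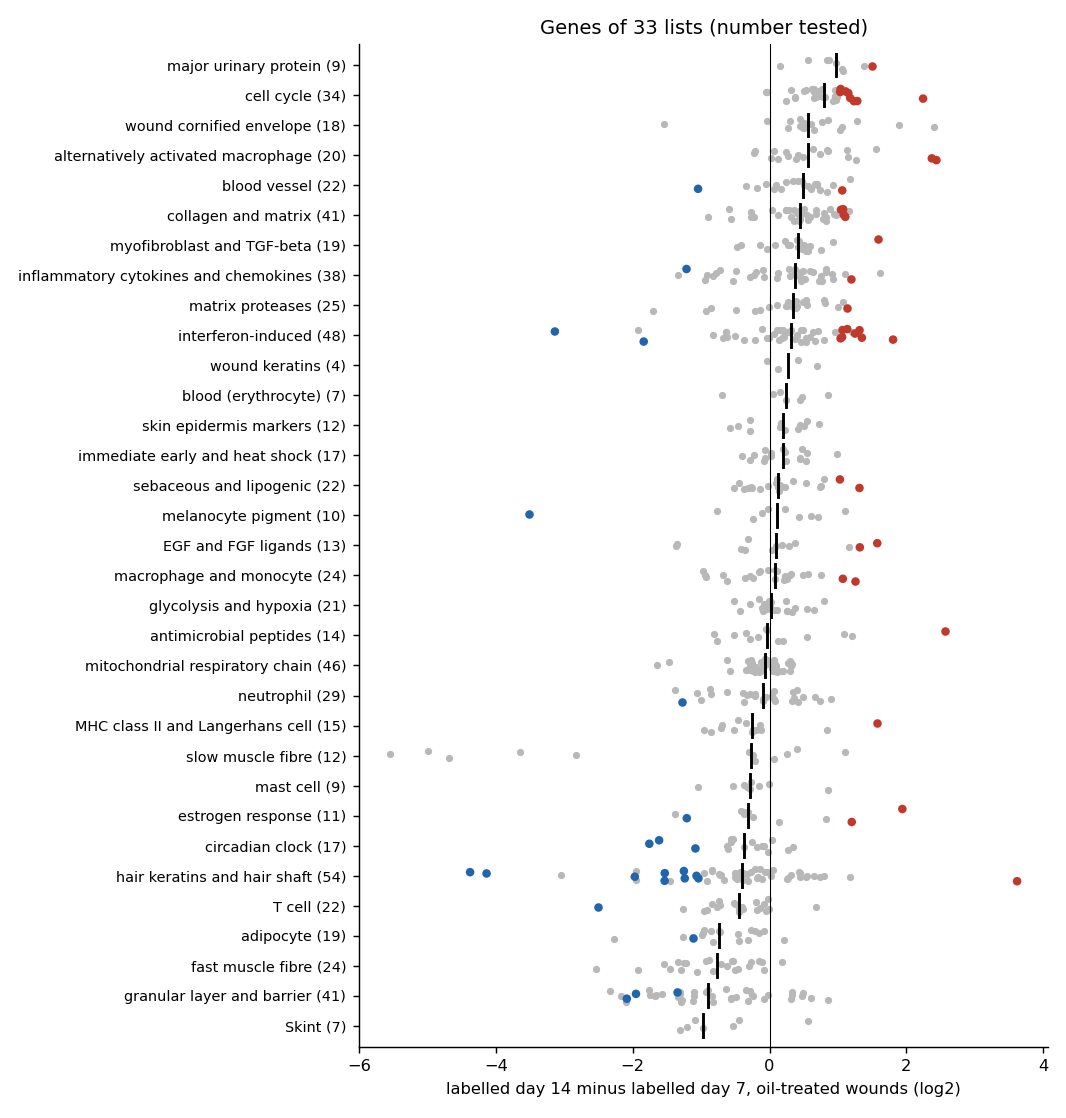
Differences between labelled day 14 and labelled day 7 in oil-treated db/db wounds (log2, horizontal axis) for the tested genes of 33 lists (number tested in brackets), ordered by the list median, shown as a black bar, with called genes in red where higher and in blue where lower. The 5 genes furthest to the left of the slow muscle list stand apart through day 7 replicate 1 and were not called.

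Neutrophil and cytokine genes were called in shares close to or below those of all probes, which were 2.46% higher and 9.38% lower. Of 29 neutrophil genes 1 was called (3.45%), Csf3r, the receptor of the neutrophil growth factor G-CSF, which was lower by 1.27 on the log2 scale (adjusted p = 0.0624) and lost its call without day 14 replicate 2 (-0.96). Summed neutrophil signal was 932 and 893 on the day 7 arrays and 749 and 860 on the day 14 arrays. Of 38 cytokine and chemokine genes, Ccl11, the eosinophil chemokine eotaxin, was called higher (1.197) and Lif, a cytokine of the interleukin 6 family, lower (-1.21), 2.63% of the list each. Without day 7 replicate 1, more cytokine genes were called higher and more neutrophil genes lower, as were more of all probes in both directions. Of 14 antimicrobial peptide genes Defb4, a beta-defensin, was called higher (2.57), or 7.14% of the list against 2.46% of all probes. These 3 did not pass adjustment, and each lost its call without at least 1 of the 4 arrays. Among 24 macrophage and monocyte genes, 2 were called higher (8.33%, against 2.46% of all probes) and 0 lower. Ccr2, the receptor that brings monocytes into wounds, was called at 1.26 ± 0.33 (adjusted p = 0.0356). It was at -0.92 and -1.20 on the day 7 arrays and at -0.15 and 0.55 on the day 14 arrays, and differed by 0.90 without day 14 replicate 2. Itgam, an integrin of myeloid cells, was the other call (1.07), was lost without 3 of the 4 arrays in turn, and had 2 further probes that differed by -0.33 and 1.01.

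Of 20 genes of alternatively activated macrophages, 2 were called higher (10%, against 2.46% of all probes) and 0 lower, 18 differed by more than 0, and the median was 0.56. The count was 6 without day 7 replicate 1, 3 without day 14 replicate 1, and 1 without day 14 replicate 2 or day 7 replicate 2. Retnla, a secreted product of such macrophages, was at -3.95 and -4.76 on the day 7 arrays and at -2.83 and -1.0 on the day 14 arrays (5.42-fold, adjusted p = 0.0333). Cd209f, a lectin, differed by 2.37 with day 7 values of -0.43 and -4.61, and by 0.28 without day 7 replicate 2, and kept its call without 1 of the 4 arrays only. The labels did not overlap for Retnla and Cd209f, but the replicates of each were far apart. Of 48 interferon-induced genes, 8 were called higher (16.7%, against 2.46% of all probes) and 2 lower (4.17%, against 9.38%), and 3 passed adjustment. Ifit1, an antiviral RNA-binding protein, was at -3.33 and -3.76 against -0.99 and -2.49 (3.5-fold, adjusted p = 0.0384), Tgtp1, a GTPase, was higher by 1.32 (0.45 and not called with normexp correction) and Rtp4, a chaperone of receptors, by 1.25. Gbp6 and Gbp4, guanylate-binding proteins, were lower by 3.14 and 1.84 on the log2 scale without passing adjustment. The count of higher genes was 2 without day 14 replicate 1 and 4 without day 7 replicate 1, where Rtp4 (0.80) and Tgtp1 (0.91) respectively lost their calls, and that of lower genes was 9 without day 7 replicate 1 and 0 without day 7 replicate 2, where the differences of Gbp6 and Gbp4 were -2.67 and -0.72.

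Of 22 T cell genes, 21 differed by less than 0, and Cd8a, the coreceptor of cytotoxic T cells, was called lower with both of its probes. That is 1 of the 22, or 4.55%, below the 9.38% of all probes called lower. Cd8a was well above background on no day 14 array with the probe of the larger difference and was at least 2.92-fold lower there (adjusted p = 0.00423), and it lost its call under normexp correction (-0.69). That probe was kept for testing through the day 7 arrays alone, so that its call adds no support. Without day 7 replicate 1, 9 genes of the list were called lower, where 3321 of 30400 probes were. Thy1, the brightest of the list and also made by fibroblasts, differed by 0.67, and the summed signal ran the other way, at 34.3 and 32 on the day 7 arrays and 39.8 and 48.4 on the day 14 arrays. Of 15 class II and Langerhans cell genes, Ciita, the class II transactivator, was called higher (1.57, adjusted p = 0.112), or 6.67% of the list against 2.46% of all probes, with 0 called lower by limma against 9.38%, and lost its call without 2 of the 4 arrays in turn. Summed signal of that list was 36.8 and 98.8 on the day 7 arrays and 37.5 and 60.2 on the day 14 arrays, so that replicates again differed more than labels, and 5 genes of the list were called lower without day 7 replicate 1. Of 19 myofibroblast genes Cthrc1 alone was called higher (5.26%, against 2.46% of all probes), with a list median of 0.41. No gene was called by limma in the lists of 7 Skint genes with a median of -0.98, of 9 mast cell, 21 glycolysis and 46 respiratory chain genes or of 17 immediate early genes. Without day 7 replicate 1, 2 Skint genes were called lower, and without day 14 replicate 2, 1 was. In all, 38 of the 722 genes of the 33 lists were called higher and 24 lower, beside 739 higher and 2816 lower of the 30022 probes tested (2.46% and 9.38%), and 11 lists had no call. The list genes were read from their brightest tested probes, so that the 2 sets are not matched for brightness.

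Receptors of sex steroids were called in the list of estrogen response genes. Of 11 estrogen response genes, Pgr and Esr1 were called higher (18.2%, against 2.46% of all probes) and Esr2 lower (9.09%, against 9.38%). Pgr, the progesterone receptor and a classical target of the estrogen receptor, was at -3.76 and -4.11 on the day 7 arrays and at -2.45 and -1.53 on the day 14 arrays (3.84-fold, adjusted p = 0.00703), and its second probe differed by 0.81 without a call. With the first probe, Pgr was well above background on 4 of 4 oil arrays and 4 of 4 estrogen arrays, and on 0 of 4 db/db and 0 of 4 WT arrays. Estrogen arrays lay between -1.41 and -0.63 and untreated arrays between -9.84 and -8.55, so that the oil arrays lay between both sets. The second probe was well above background on 4 of 4 oil, 4 of 4 estrogen, 1 of 4 db/db and 0 of 4 WT arrays. Esr1, estrogen receptor alpha, was at -3.31 and -3.41 against -2.59 and -1.72 (adjusted p = 0.0522), and differed by 0.77 without day 14 replicate 2. Esr2, estrogen receptor beta, was lower by 1.21 on the log2 scale (adjusted p = 0.0799), by 0.92 without day 14 replicate 2, and was not called without day 7 replicate 1 either.

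Of 17 circadian clock genes, 3 were called lower (17.6%, against 9.38% of all probes) and 0 higher, and the count was 1 without day 14 replicate 2 and 2 without each of the other arrays in turn. Per3, a period protein, was at -4.55 and -4.12 on the day 7 arrays and at -5.98 and -6.21 on the day 14 arrays (3.38-fold lower, adjusted p = 0.0094). Its difference was -1.86 in the db/db group, -2.39 in the db/db + estrogen group and 0.64 in the WT group. Hlf, a clock-linked transcription factor, was lower by 1.08 on the log2 scale without passing adjustment (adjusted p = 0.129), and lost its call without 2 of the 4 arrays in turn. Normexp correction ended the call of Per3 (-0.90). Of 9 major urinary protein genes Mup5 was called higher (1.49, adjusted p = 0.155), or 11.1% of the list against 2.46% of all probes. Mup5 lost its call without each of the 4 arrays in turn. The list had 4 genes called higher without day 14 replicate 1. Of 25 matrix protease genes Mmp19 was called higher (1.13, adjusted p = 0.072), or 4% of the list against 2.46% of all probes. Mmp19 differed by 0.74 without day 14 replicate 1. The count of the protease list rose without day 7 replicate 1, as did that over all probes. It also rose without day 14 replicate 1, where that over all probes fell. Of 22 sebaceous and lipogenic genes, Elovl6, a fatty acid elongase, and Fads1, a desaturase, were called higher by 1.32 and 1.03 (9.09% of the list, against 2.46% of all probes). Elovl6 differed by 0.41 without day 7 replicate 1 and lost its call without either day 14 array too, and Fads1 by 0.98 without day 14 replicate 1 and by 0.99 without day 7 replicate 2. The list had 5 genes called higher without day 7 replicate 2 and 0 called by limma without day 14 replicate 1.

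The largest higher calls were on dim probes. The 12 genes with the largest higher calls that were well above background on all 4 arrays were Kif12, Rfesd, Arhgap33os, Chrm4, Bcl2l14, Trim43b, Kctd11, Vmn2r35, Slc26a1, Vmn2r48, Cpb2 and Papln, with differences from 5.47 down to 2.83. They have no common role, and range from a kinesin (Kif12) and a muscarinic receptor (Chrm4) to vomeronasal receptors (Vmn2r35, Vmn2r48), a sulfate transporter (Slc26a1) and a plasma carboxypeptidase (Cpb2). Kif12 was at -7.16 and -6.52 on the day 7 arrays and at -0.98 and -1.76 on the day 14 arrays (adjusted p = 0.00175). The median signal of the 12 was -6.38 and -5.87 on the oil day 7 arrays and -1.50 and -2.23 on the oil day 14 arrays. It was -4.72 and -5.81 on the untreated db/db day 7 arrays and -4.76 and -3.91 on the day 14 arrays, and between -3.45 and -1.86 on the 8 estrogen and WT arrays. The oil day 7 arrays were thus the low end, and for 7 of the 12 they were the 2 lowest of all 16. A second probe was tested for 5 of the 12 genes and was called the same way for 2. Among probes well above background on no day 7 array, Dnajb8, a testis chaperone, was at least 40.8-fold higher, Vmn1r197, a vomeronasal receptor, at least 37.1-fold, and Wfdc6a and Wfdc6b, members of a protease inhibitor family, at least 33.5-fold and 29.9-fold. Genes of such families are alike in sequence, and whether a probe read 1 member only was not tested.

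The 12 largest lower genes were taken among calls that passed adjustment on probes well above background on all 4 arrays. They were Cftr, Cstdc1, Klra1, Gabbr2, Rabgap1, Atg9b, Defb28, Eid3, Iqck, Ddx25, Trpm1 and Zfhx2, with differences from -3.99 to -3.52. Of these, 4 (Klra1, Rabgap1, Ddx25 and Trpm1) lay among the brighter probes. Cftr, the chloride channel of secretory epithelia, was at -2.10 and -1.67 on the day 7 arrays and at -5.78 and -5.97 on the day 14 arrays (15.8-fold lower, adjusted p = 0.00307). Klra1, a receptor of natural killer cells, was at 1.47 and 2.13 against -2.47 and -1.70 (14.7-fold lower, adjusted p = 0.0369). A second probe was tested for 3 of the 12 genes, and 0 of these were called lower. All 12 had the same sign in WT, db/db and db/db + estrogen wounds, with median differences of -2.01, -2.89 and -2.44. In WT wounds, 11 of the 12 were more than 1 log2 unit higher on day 14 replicate 2 than on day 14 replicate 1. Rpsa, a protein of the small ribosomal subunit, was at least 9.75-fold lower with the probe named here, and its other 3 probes differed by -0.42, -0.15 and -0.07. Plppr3 was at least 7.88-fold lower, and S100g, a calcium-binding protein, at least 7.8-fold lower without passing adjustment (adjusted p = 0.102), a call it lost without 3 of the 4 arrays in turn. S100g was at -2.81 and -6.11 on the day 7 arrays, and differed by -2.65 without day 7 replicate 1. Its second probe was called lower as well (-3.69).

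Few genes were called with more than 1 probe. Of the genes called higher with at least 2 probes tested, 117 in all, 15 had 2 or more probes called higher (12.8%) and 6 also had a probe called lower. Of those called lower, 432 in all, 69 had 2 or more (16%) and 6 had a probe called higher. Notch1, a receptor of epidermal differentiation, was called with 1 probe only, brighter than the median and lower by 2.82 on the log2 scale. Its second probe differed by 0.43 without a call. Akap7, a kinase anchor, was lower by 3.47 and its other 2 probes differed by 0.44 and 0.06. The 12 largest lower genes that passed adjustment on bright probes to curated messenger RNAs were chosen after their values were seen. Of these, 8 had another probe tested and 0 of the 8 had another probe called lower. The others of that set were Klra1, Rabgap1, Ddx25 and Trpm1, given above, and Tdgf1 (-3.40), Pnma2 (-3.32), Cmya5 (-3.31), Mrgprg (-3.28), Ermn (-2.91) and Dcaf12l2 (-2.87).

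**Figure D4:**
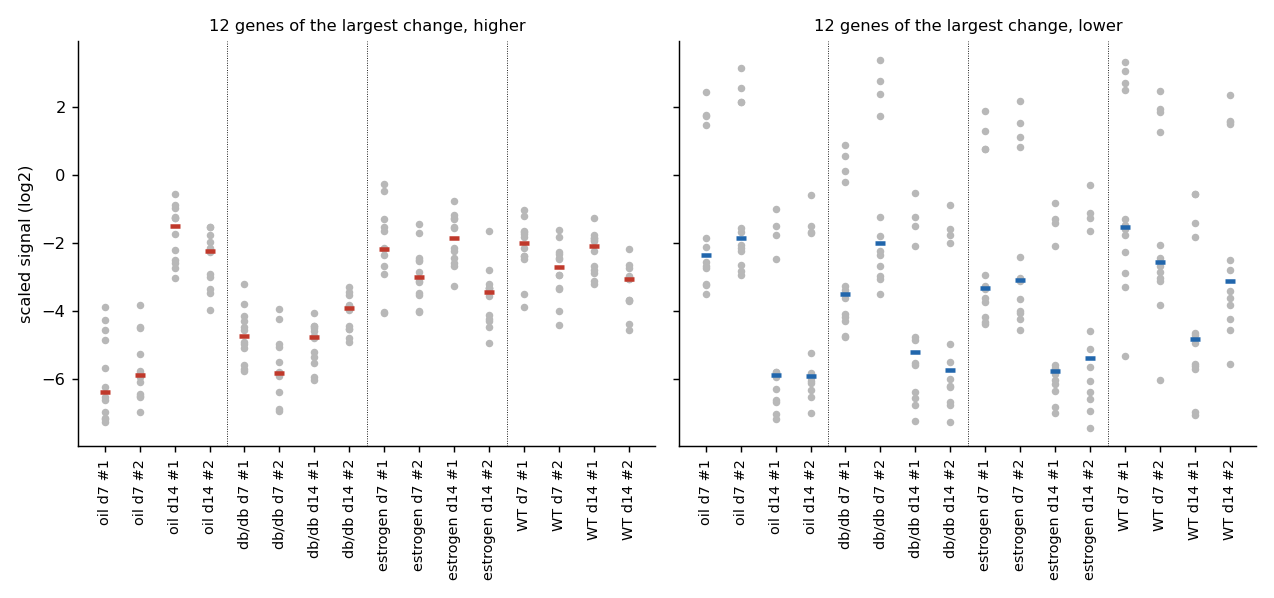
Scaled signal (log2) on all 16 arrays of the 12 largest higher and the 12 largest lower genes. Grey points are genes and a coloured bar is their median. Both sets were taken among probes well above background on all 4 oil arrays. The higher genes were lowest on the oil day 7 arrays, with medians of -6.38 and -5.87, and the lower genes were low on the day 14 arrays of every group but for WT replicate 2, whose median was -3.11.

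The labelled-day difference of the oil-treated wounds was then set against that of each other group, in the same fit. The comparisons share the 4 oil arrays, and each other group shares slides and scan days with them. Against untreated db/db wounds, 659 probes differed more upward (2.2%) and 158 more downward (0.526%), and after adjustment by limma 1 (0.00333%) and 0 (0%) passed. Against db/db + estrogen wounds the counts were 1132 (3.77%) and 1003 (3.34%), and 2 (0.00666%) and 7 (0.0233%) after adjustment. Against WT wounds they were 774 (2.58%) and 2104 (7.01%), and 108 (0.36%) and 513 (1.71%) after adjustment. Across 30020 probes, which share base composition and scan day, the oil difference correlated with r = 0.682 with the difference in db/db wounds, 0.501 in db/db + estrogen wounds and 0.217 in WT wounds, and in the brightest quintile with 0.725, 0.413 and 0.422.

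The 1 probe that passed against untreated db/db wounds was Il10, an anti-inflammatory cytokine. It was at -5.00 and -4.57 on the oil day 7 arrays and at -4.60 and -4.37 on the oil day 14 arrays, and at -2.96 and -2.83 against -5.31 and -5.49 in the db/db group (difference of the differences 2.81, adjusted p = 0.0322). The untreated wounds thus held the larger difference, at -2.51 against 0.30.

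Against db/db + estrogen wounds, 9 probes passed adjustment. Krt6b, a keratin that keratinocytes switch on when they are wounded, was at 7.78 and 6.52 on the oil day 7 arrays and at 7.66 and 7.48 on the oil day 14 arrays, and at 0.49 and 2.00 against 7.81 and 7.14 in the estrogen group (-5.81, adjusted p = 0.0497). Sprr2e, Sprr2f and Sprr2i, small proline-rich proteins of the cornified envelope, differed from the estrogen group by -8.12, -10.47 and -10.66, Defb3, a beta-defensin, by -8.32, and S100a8, a neutrophil and keratinocyte alarmin, by -5.34. In the oil arrays themselves these 6 genes differed by -0.33 to 1.21 and none was called. Gzmn, a granzyme, differed from the estrogen group by -5.29, and Tnni3k, a kinase of muscle, by 3.96. Sprr2f, Sprr2i, Defb3 and Gzmn were well above background on no estrogen day 7 array, so that their values here are fitted ones that include signals below background. The other probe that passed upward had no gene symbol. By list, 15 of 18 wound cornified envelope genes, 18 of 29 neutrophil genes and 4 of 4 wound keratins were called for a lower difference than in estrogen wounds, against 3.34% of all probes, and 3, 1 and 1 of them passed adjustment. Their median differences were 0.56, -0.10 and 0.27 in the oil group and 6.25, 2.29 and 3.78 in the estrogen group. Major urinary protein genes ran the other way, with 8 of 9 called for a higher difference, against 3.77% of all probes, and 0 after adjustment by limma. Of 54 hair genes, 13 were also called for a higher difference and 0 after adjustment by limma.

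Against WT wounds, Per3 (-2.40, adjusted p = 0.0366), Malat1 and Snhg7 passed, beside 4 of the 12 largest higher genes. On brighter probes, Lhx2, a hair follicle transcription factor, Sostdc1, a BMP and WNT inhibitor of the follicle, and Elovl5, a fatty acid elongase, differed from WT by 3.209, 2.05 and 1.80. In the oil arrays Lhx2 was called at 1.48 and lost its call without day 7 replicate 1 (0.65) and without day 14 replicate 2 (1.22), Sostdc1 was called at 1.11 and lost its call without day 7 replicate 1 (0.67) and with normexp correction (0.97), and Elovl5 differed by 0.75 without a call. Acrbp, a sperm protein, and Igflr1, a receptor of the TNF receptor family, differed from WT by -2.91 and -2.47, and were lower in the oil arrays by 2.74 (adjusted p = 0.00126) and 2.59 (adjusted p = 0.00127) on the log2 scale.

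**Figure D5:**
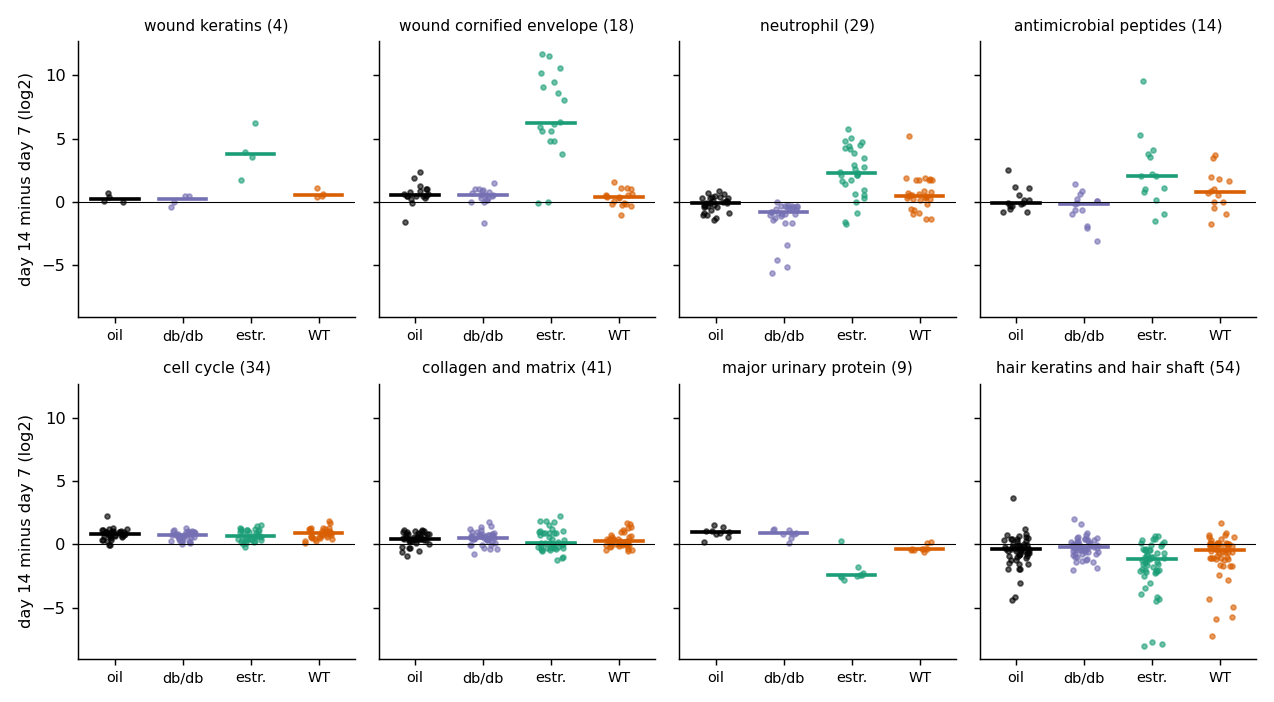
Difference between labelled day 14 and labelled day 7 (log2, vertical axis) for the tested genes of 8 lists in oil-treated db/db wounds (oil), untreated db/db wounds, db/db + estrogen wounds (estr.) and WT wounds, with a point for each gene and a bar for the median. Cell cycle genes had medians of 0.65 to 0.89 in all 4 groups, and wound cornified envelope genes had a median of 0.56 in oil and 6.25 in estrogen wounds.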

How the data were processed

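Total RNA of each wound homogenate was labelled with Cy3 by a low-input kit and hybridized to a 1-colour Agilent mouse array. The intensity values were made by the authors with Agilent Feature Extraction 11.0.1.1, which subtracts background, and were deposited as scanner output for 16 arrays. The authors also deposited a table of ratio values from GeneSpring 12.1, each the signal over the 75th percentile of its array, which was used as an alternative only. It matched the scanner values to within 0.1% for at least 99.3563% of 34643 probes per array, with a linear scale, no centring across arrays and column medians from 0.139457 to 0.182305. Of 39429 probes that were not controls, 69.56% were given a gene symbol. The symbol was found by matching the accession in the scanner files to RefSeq transcripts. Array designs can be old, so some accessions may be too, and probes whose accession was not matched have no symbol here. The number of arrays limits the precision.

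Spots of a probe were averaged without outlier spots, none was saturated, and the log2 75th percentile was subtracted. A probe was kept if both day 7 or both day 14 oil arrays had it well above background. A fit of 8 groups with limma 3.58.1 in R 4.3.3 pooled the spread over 8 residual degrees of freedom with an empirical prior, and p-values were two-sided and adjusted by the Benjamini-Hochberg method over all probes kept. The threshold of an unadjusted p below 0.05 with a fold above 2 followed the methods of the study. Where no array of a label was well above background, folds were bounded by the lowest signal among probes that were. A gene was read from its probe of highest mean signal. Named were, in each direction, the 12 largest calls that passed adjustment on probes above background on all 4 arrays and whose symbol is no clone or predicted-gene name, the 4 largest bounds, up to 4 called genes of each list, those that passed adjustment, and the brightest gene. The members and gene lists were chosen with earlier results of these data known, and bright, noncoding and some further genes after their values were seen. The procedure was tested on simulated data with independent noise on each array and no added slide or scan-day effect. That test cannot tell labelled day and scan day apart. Deviations of same-numbered oil arrays correlated with r = 0.024 (-0.053 to 0.248 in the other groups), so that the numbers were not taken to pair the samples. On day 7 the number coincided with the slide. The result of 1 called gene of a list is not reported here.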

Additional observations from a re-analysis of the deposited data

Results flagged for a closer look

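Differences between groups in the labelled-day difference, tested in the same limma fit, passed adjustment for 1 probe higher than in db/db wounds, 2 higher and 7 lower than in db/db + estrogen wounds, and 108 higher and 513 lower than in WT wounds. All of these comparisons share the 4 oil arrays. No explanation was tested.

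Against db/db wounds, Il10 differed by 2.81. Against db/db + estrogen wounds, Gzmn differed by -5.29, S100a8 by -5.34, Sprr2e by -8.12, Sprr2f by -10.47, Sprr2i by -10.66, Krt6b by -5.81, Defb3 by -8.32 and Tnni3k by 3.96. None of these was called in the oil arrays themselves. The probes of Gzmn, Sprr2f, Sprr2i and Defb3 were below background on both estrogen day 7 arrays, so that their fitted differences are no bounds.

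Against WT wounds, Kif12 differed by 5.67, Rfesd by 5.34, Chrm4 by 3.76 and Papln by 3.605. The fitted differences of probes below background on the oil day 7 arrays, which are no bounds, were 6.21 for Dnajb8, 7.64 for Vmn1r197, 7.29 for Wfdc6a and 7.13 for Wfdc6b. Those of probes below background on the oil day 14 arrays were -3.89 for Rpsa and -2.86 for Plppr3. Pgr was well above background on no WT array, so that its fitted difference of 2.89 includes a shift of -0.95 among WT signals below background and is no measure of expression there. Per3 differed by -2.40, Malat1 by -1.83 and Snhg7 by -1.84. Lhx2 differed by 3.209, Sostdc1 by 2.05, Elovl5 by 1.80, Acrbp by -2.91 and Igflr1 by -2.47.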

How the results depend on the processing

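With normexp background correction the calls in oil-treated wounds were 298 higher and 1556 lower, and with quantile normalization 1196 were higher. Probes well above background on all 4 arrays gave 377 higher, adjustment 407, probes brighter than the median 151 higher and 487 lower, and probes to curated messenger RNAs 438 and 1117. For the difference from db/db wounds, higher calls were 260 with normexp, 380 with probes above background on all 4 arrays and 1 after adjustment. Lower calls were 83 with normexp, 263 with quantile normalization, 320 without a filter, 279 with the compared arrays alone, 394 with slide as a fixed block and 0 after adjustment by limma, against 158 unadjusted. From db/db + estrogen wounds, normexp gave 570 higher and 630 lower, and adjustment 2 and 7. From WT wounds, normexp gave 399 and 1026, adjustment 108 and 513, no filter 1233 higher, and probes above background on all 4 arrays 495 higher.

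Leaving out 1 array at a time gave 701 to 1078 higher and 2497 to 3321 lower in oil-treated wounds, 491 to 948 and 135 to 451 for the difference from db/db, 904 to 1295 and 799 to 1268 from db/db + estrogen, and 667 to 1022 and 1407 to 3116 from WT. After adjustment 156 higher and 1032 lower remained in number without day 14 replicate 1, 264 and 1135 without day 14 replicate 2, 346 and 1750 without day 7 replicate 1, and 171 and 1057 without day 7 replicate 2, where the lone array was assumed to vary like the other groups.

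Of 109 named probes called, 66 kept the call under every alternative in which they were tested, and 0 reversed. With only probes well above background on all 4 arrays, 96 of the 109 were tested, and all of these kept the call. The numbers that kept it were 88 with normexp, 101 with quantile normalization, 80 with adjustment, 107 without a filter, 104 with the compared arrays alone and 109 with the authors' ratios. Reversals were limited to uncalled genes. Krt5 ranged from -0.075 to 0.392, Col1a1 from -0.028 to 0.28 and Lepr from -0.312 to 0.062 with 1 array left out. Tnni3k was -0.014 with normexp and ranged from -0.142 to 0.944, Sprr2i from -0.205 to 2.259, Sprr2e from -0.216 to 1.106, Krt6b from -0.214 to 1.051 and Defb3 from -0.035 to 2.446. The cause of these changes was not tested.

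With the replicate number as a block, the calls were 743 higher and 2803 lower, and Lce1k, Defb4 and Itgam lost theirs. Slide as a random block gave 740 and 2819, and as a fixed block 767 and 2868. Itgam lost its call with the random block, and Lce1k, Defb4 and Mup5 theirs with the fixed block. The number coincided with the slide on day 7 in every group and on day 14 in the oil and estrogen groups. Fold changes of dim probes rest on signals near background.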
